A study of Mus musculus with 4 samples.

Results

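The interferon response genes examined here are 37 genes listed by symbol, 30 placed in a type I interferon class and 7 in an interferon gamma class, called gamma-type. The type I class includes Irf3, which acts upstream of the interferon genes. Probes of the array were matched to them through their RefSeq accessions. A probe was found for 34 of the 37, and 33 were measured well enough to be tested, 26 of the type I class and all 7 of the gamma-type class, among 12542 genes tested in all. Irf7, Mx1 and Mx2 had no matched probe. Dhx58, an RNA-binding regulator of antiviral sensing, was well above background on 1 of 4 arrays, control array 1, and was left out of the test. Of the 33 tested, 31 were well above background on all 4 arrays. The exceptions were Ifit1, which missed that mark on control array 1, and Cmpk2, which missed it on doxycycline array 1.

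Interferons are secreted proteins by which cells warn each other of infection. Type I interferons act through a receptor that switches on a complex holding Stat2 and Irf9, which binds the interferon-stimulated response element in promoters. Interferon gamma, made mostly by lymphocytes, acts through another receptor and the gamma-activated site in promoters, and it induces Irf1, Irf8 and families of large GTPases. In heart tissue these genes are expressed by muscle cells and also by endothelial cells, fibroblasts and macrophages.

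The RNA came from adult heart muscle cells of male mice 10 weeks old. All animals carried the same alleles, a Cre driven by the αMHC promoter, which is active in heart muscle cells, and the 4 OSKM reprogramming factors under a tetO element. Control animals were given PBS for 2 days and doxycycline animals were given doxycycline by intraperitoneal injection for 2 days, with 2 Agilent 1-colour arrays per group. Since no factor-free animals received the drug, an effect of doxycycline and one of the factors cannot be told apart. The labels do not say whether the 2 arrays of a group came from separate animals, so the p-values measure only the spread between these samples.

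The 4 arrays lay on 1 slide, the controls at positions 1 and 2 and the doxycycline arrays at positions 3 and 4, so position and treatment cannot be told apart. No spot was saturated, and 50.6% to 51.8% of spots were well above background on each array. The 75th percentile of the processed signal ran from 112 on control array 1 to 248 on doxycycline array 1. Levels below are log2 processed signal minus that percentile of the same array, so a level of 0 is the array's 75th percentile and 1 unit is a factor of 2. They compare arrays for a given gene and not genes with each other. All 12 cardiomyocyte markers were well above background on all 4 arrays. So were all 12 endothelial markers and the fibroblast markers other than Postn, which was so on 2 of 4 arrays, and transcripts of other heart cells were thus measured too. In RNA from a mixture, fewer cells of a type and less RNA per cell cannot be told apart.

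No interferon response gene passed the test for a difference between doxycycline and control. The smallest adjusted p among the 33 was 0.558, for Ifit3 (limma with Benjamini-Hochberg adjustment over all genes). The background was the same, since 0 of the 12542 genes, or 0%, passed at 0.05. At an unadjusted p under 0.05, 1 member was lower, Ifit3, and 0 were higher, against 3.89% of all genes lower and 3.17% higher, so the members' count was near the background. The differences, doxycycline minus control, were below 0 for 27 members and above 0 for 6, where 54.8% of all genes were below 0. Their median was -0.55 in the type I class and -0.26 in the gamma-type class, beside -0.06 over all genes. With arrays scaled to their medians, which moved the median of all genes to 0.29, the type I median was -0.20, with 15 members below 0 and 11 above, and the gamma-type median was 0.092. The array medians, 11.9 to 16.5 in processed signal, lay near the background limit, since 50.6% to 51.8% of spots were well above background. That scaling thus rests on dim spots. For 7 members, all of the type I class, both doxycycline arrays lay below both controls, and 20.8% of all genes did so, a share close to that of the members. For 0 members did both lie above, against 14.5% of all genes.

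**Figure D1:**
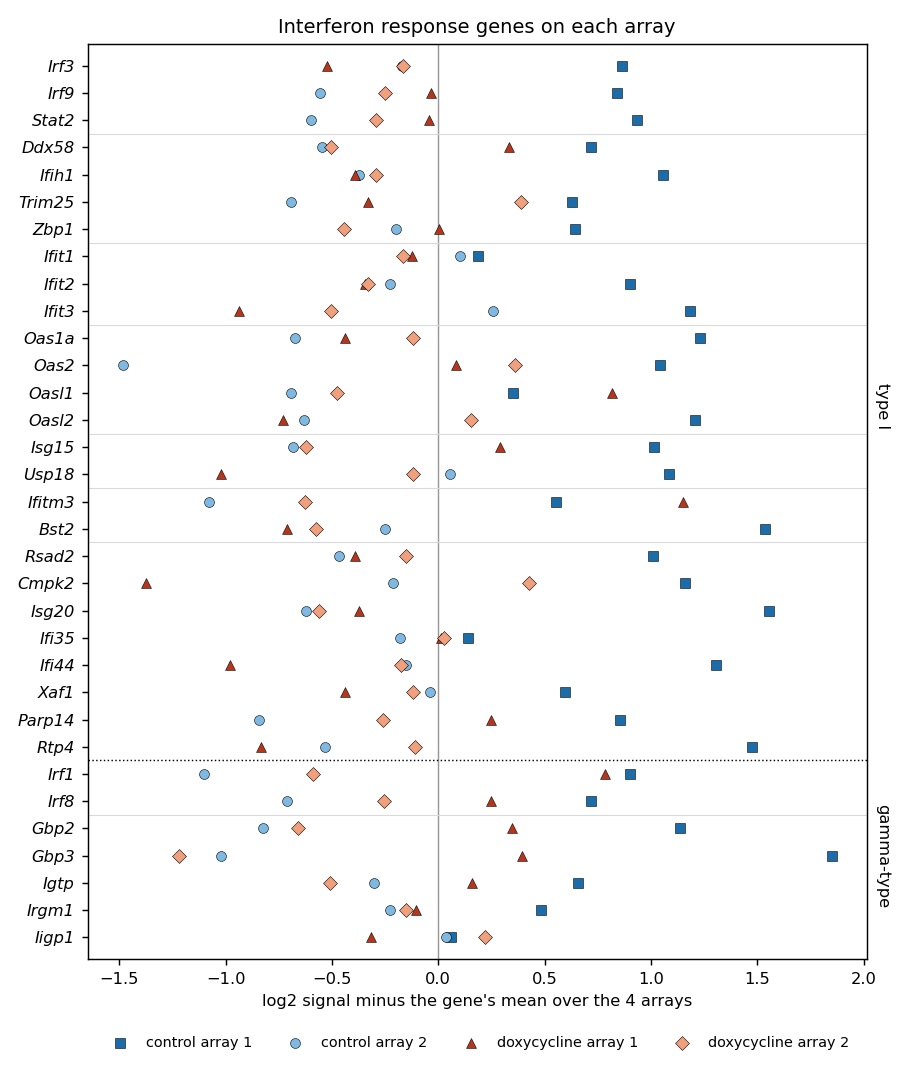
Level of each of the 33 tested interferon response genes on each of the 4 arrays, as the level defined above minus the gene's own mean over the 4 arrays (horizontal axis, log2 units), with genes in order of role along the vertical axis and 1 mark per array. Control array 1 has the highest mark for 30 of the 33 genes.

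Within the controls, the first array stood above the second for every tested member, 33 of 33. The gap had a median of 1.43 log2 units and ran from 0.02 to 2.87. Over all genes, 46.6% were higher on the first, with a median gap of -0.08. Control array 1 held the highest of the 4 levels for 30 members, against 34.7% of all genes, the exceptions being Oasl1, Ifitm3 and Iigp1. The gap between the controls was above 1 log2 unit for 25 members, 21 of the type I class and 4 gamma-type, against 17.1% of all genes. For 29 members the 2 controls lay further apart than the group means did, which held for 68.8% of all genes. The controls were also further apart than the 2 doxycycline arrays for 29 members, against 70.4% of all genes. Between the doxycycline arrays, array 1 minus array 2, the median gap was -0.12 in the type I class. In the gamma-type class 6 of 7 members were higher on doxycycline array 1, where 49.7% of all genes were, with a median gap of 0.67.

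Markers of other heart cells moved with the members on control array 1. All 12 endothelial, all 12 fibroblast and all 10 tested macrophage markers exceeded their control array 2 level on control array 1, with median gaps of 1.70, 1.67 and 1.65 log2 units. The 4 tested red cell markers had a median gap of 2.30. Of the 12 cardiomyocyte markers 2 were higher there, with a median gap of -0.66. The summed signal of the endothelial list, in multiples of the array's 75th percentile, reached 825 and 259 in controls 1 and 2, against 363 and 420 after doxycycline. The macrophage sums were 23.3, 8.40, 6.15 and 7.08 in the same order. The sums of the type I members were 108, 41.5, 72.6 and 52.8, and those of the gamma-type members 32.9, 10.9, 24.8 and 12.8. Thus control array 1 was highest in each of these 4 sums. The doxycycline sums lay above that of control array 2 for the endothelial list and both member classes, and below it for the macrophage list. Such sums rest most on the brightest probes. By gene, both doxycycline arrays lay above control array 2 for 13 of 26 type I members and below it for 7. The counts were 4 and 0 of 7 gamma-type members, 7 and 1 of 12 endothelial markers, and 1 and 7 of 10 macrophage markers. Over all genes, 28.4% lay above and 44.3% below. The doxycycline minus control difference had a median of -1.65 for the fibroblast markers, and of -0.92 without control array 1. At an unadjusted p under 0.05 (limma), 6 of 12 were lower, against 3.89% of all genes. Postn, 1 of the 12, read -4.64 and -3.90 after doxycycline. The lowest levels well above background on those arrays were -4.44 and -4.02. For the monocyte and neutrophil markers, of which 4 of 8 were tested, the median difference was 2.79, and 3.31 without control array 1. With all arrays S100a8, S100a9 and Retnlg were higher and Csf3r was lower (-0.33). None of these markers passed the adjusted test. The part of these cells in the member levels was not tested. The macrophage marker Cd163 and the monocyte and neutrophil markers Ccr2 and Cxcr2 were well above background on 0 of 4 arrays, and Plac8 on 1. Ly6c2 had no matched probe. None of the 5 B cell markers was tested, and 3 of 10 T and NK cell markers were.

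**Figure D2:**
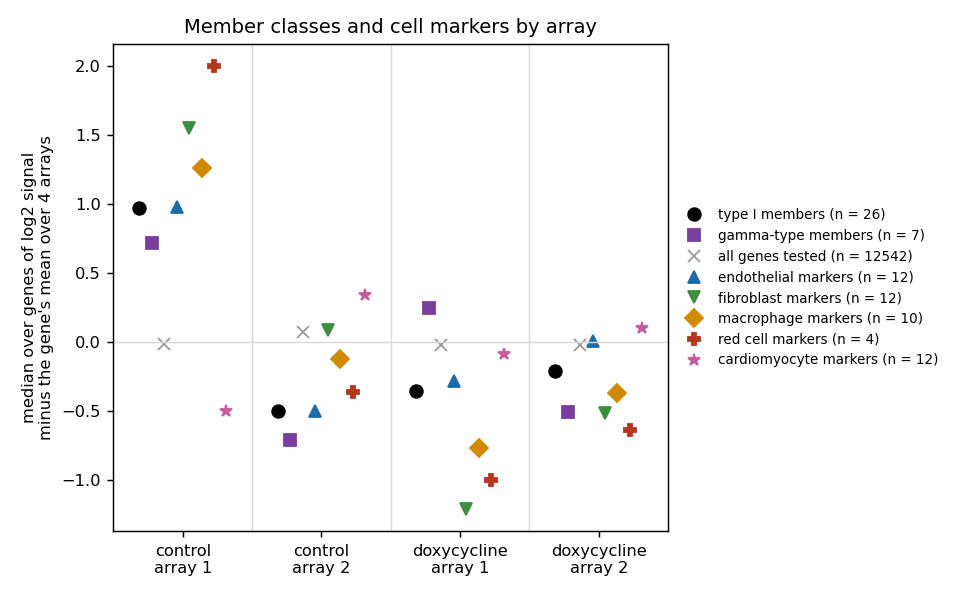
Median over the genes of each list of the log2 level minus the gene's own mean over the 4 arrays, with arrays along the horizontal axis and 1 mark per list. On control array 1 the type I members stand at 0.97 and the gamma-type members at 0.72, beside 0.98 for endothelial markers and -0.50 for cardiomyocyte markers.

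With 2 controls, the values do not show which of them is the less typical, so each was left out in turn. Leaving out control array 2 kept both class medians below 0, at -1.19 for type I and -0.81 for gamma-type. Then 0 of 26 type I and 0 of 7 gamma-type members were above 0. Leaving out control array 1 turned the direction of both class medians. The median became 0.17 in the type I class, with 16 members above control array 2 and 10 below, and 0.61 in the gamma-type class, with 6 above and 1 below. The median over all genes then was -0.11, and 41.6% of all genes were above 0. In all, 16 members were below 0 with every array and above 0 without control array 1, against 12.3% of all genes. Both doxycycline arrays lay above control array 2 for 17 members, below it for 7 and on either side of it for 9, where 28.4% of all genes lay above and 44.3% below. No member passed without that array either, and 0 genes of all did. The smallest adjusted p was 0.359, for Oas2 (limma with Benjamini-Hochberg adjustment over all genes). At an unadjusted p under 0.05, 1 member was higher, Oas2, and 0 were lower, against 4.44% and 5.06% of all genes.

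**Figure D3:**
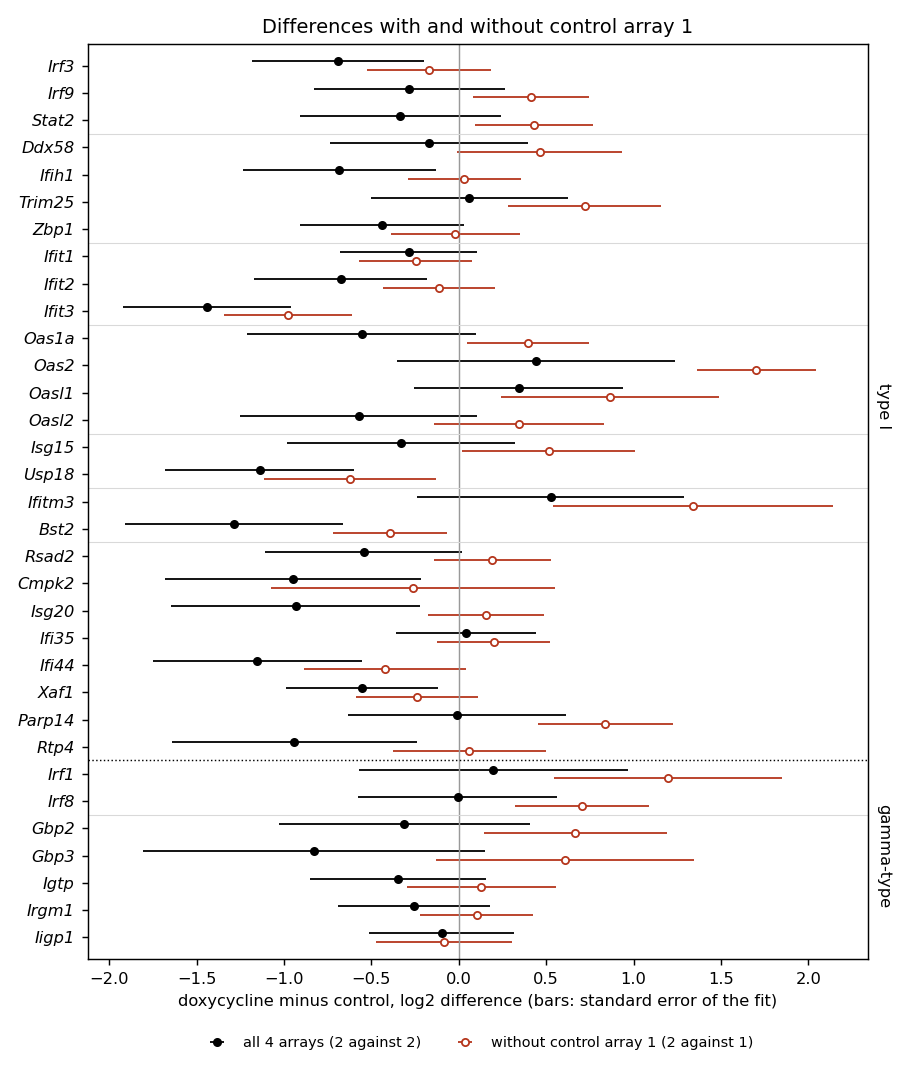
Doxycycline minus control difference of each tested member, in log2 units, with all 4 arrays (filled marks) and without control array 1 (open marks), bars of 1 standard error, and genes in order of role along the vertical axis. Open marks lie to the right of filled marks for 33 of the 33 genes, which follows from control array 1 exceeding control array 2 for each. For 16 genes the 2 marks lie on opposite sides of 0.

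The promoters of several members hold the letters that interferon-activated complexes bind. RefSeq windows of assembly GRCm38.p6 were found for 28 of the 37 members, and the 250 bases before each start were searched on both strands. The core of the interferon-stimulated response element, GAAANNGAAA, which reads TTTCNNTTTC on the other strand, was present for 11 of the 28, or 39.3%, against 3.46% of 27025 genes. It was present for 7 of 22 type I members and 4 of 6 gamma-type members. The gamma-activated site, TTCNNNGAA, which reads the same on both strands, was present for 7 of the 28, or 25.0%, against 8.13% of genes, and for 3 of the 6 gamma-type members, Igtp, Irf1 and Irf8. Isg15 had 3 response element cores that overlapped in a row. The 6 windows below show what the element looks like in tested members of different roles. They are written 5′ to 3′ along the gene's strand, ending at the base before the start, with response element cores in capitals. Adjoining or overlapping cores form a single capital run. In Bst2 a gamma-activated site overlaps the capitals.
Ifit3 (chr19:34583279-34583528, plus strand): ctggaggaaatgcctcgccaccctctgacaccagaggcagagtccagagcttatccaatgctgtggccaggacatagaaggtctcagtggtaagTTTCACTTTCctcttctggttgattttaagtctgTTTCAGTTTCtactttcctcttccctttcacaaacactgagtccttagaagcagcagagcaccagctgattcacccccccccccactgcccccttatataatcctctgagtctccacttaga
Bst2 (chr8:71537473-71537722, minus strand): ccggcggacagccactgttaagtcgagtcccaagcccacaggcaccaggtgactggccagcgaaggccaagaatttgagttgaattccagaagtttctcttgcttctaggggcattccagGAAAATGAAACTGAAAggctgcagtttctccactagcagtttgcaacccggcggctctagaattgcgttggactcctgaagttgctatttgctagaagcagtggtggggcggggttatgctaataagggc
Rsad2 (chr12:26456453-26456702, minus strand): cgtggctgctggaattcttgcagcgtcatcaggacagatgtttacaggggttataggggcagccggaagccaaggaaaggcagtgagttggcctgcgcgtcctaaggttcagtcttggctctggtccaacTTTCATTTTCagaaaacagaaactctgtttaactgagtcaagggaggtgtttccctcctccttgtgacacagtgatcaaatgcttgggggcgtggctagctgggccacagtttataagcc
Oas1a (chr5:120907526-120907775, minus strand): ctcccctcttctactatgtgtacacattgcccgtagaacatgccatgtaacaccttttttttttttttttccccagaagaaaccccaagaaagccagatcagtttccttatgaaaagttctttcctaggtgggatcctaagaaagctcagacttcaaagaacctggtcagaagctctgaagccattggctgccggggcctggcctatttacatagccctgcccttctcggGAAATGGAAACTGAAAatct
Gbp3 (chr3:142559794-142560043, plus strand): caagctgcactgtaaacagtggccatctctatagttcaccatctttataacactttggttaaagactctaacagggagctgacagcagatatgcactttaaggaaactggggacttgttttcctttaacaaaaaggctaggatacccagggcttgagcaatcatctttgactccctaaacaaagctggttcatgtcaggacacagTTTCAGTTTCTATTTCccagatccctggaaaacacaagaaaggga
Ifit1 (chr19:34640639-34640888, plus strand): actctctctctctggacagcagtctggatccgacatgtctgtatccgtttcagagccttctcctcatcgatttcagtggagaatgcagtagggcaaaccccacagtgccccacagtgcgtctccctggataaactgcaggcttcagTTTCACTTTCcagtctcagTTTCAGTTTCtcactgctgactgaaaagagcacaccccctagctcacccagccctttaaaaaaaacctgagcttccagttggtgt
A match describes these letters and not a bound site. Ifit3 and Ifit1 carried 2 separate cores each, on the strand opposite to the gene, while the pairs in Bst2, Oas1a and Gbp3 overlapped.

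**Figure D4:**
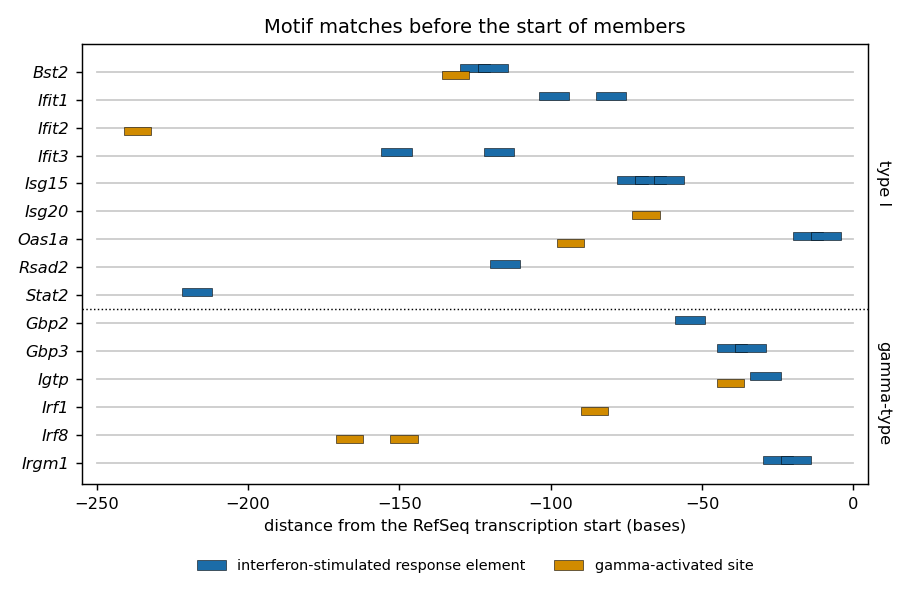
Position of response element cores and gamma-activated sites in the 250 bases before the start of each member that holds either, with distance from the start in bases on the horizontal axis and 1 row per gene. The cores nearest to a start are those of Oas1a, whose last base lies at -5.

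Among transcription factors of the type I class, 3 were measured. Irf3, which switches on interferon genes after viral sensing, read 4.41 and 3.38 in controls (array 1, then array 2, here and below) and 3.03 and 3.39 after doxycycline. Doxycycline array 2 lay just above control array 2, so the groups overlapped, and the difference was -0.69 ± 0.49 (SE, n = 2 per group; adjusted p = 0.894, limma). It was -0.17 without control array 1. Irf9, the DNA-binding part of the type I complex, read 1.77 and 0.38 in controls and 0.90 and 0.68 after doxycycline. Stat2, its partner, read 1.27 and -0.26 in controls and 0.29 and 0.05 after doxycycline. For both genes the doxycycline arrays lay between the controls. The group's median difference of -0.34 became 0.41 without control array 1 and 0.012 when arrays were scaled to their medians.

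Sensors of foreign nucleic acid showed the same spread between the controls. Ifih1, the long RNA sensor MDA5, read 0.19 and -1.24 in controls and -1.26 and -1.16 after doxycycline. The last 3 of those levels were close together and control array 1 stood apart. Zbp1, which senses Z-form nucleic acid, read -0.94 and -1.78 in controls and -1.57 and -2.02 after doxycycline, and its difference of -0.44 ± 0.47 was -0.019 without control array 1. Ddx58, the RNA sensor RIG-I, read 1.15 and -0.11 in controls and 0.77 and -0.07 after doxycycline. Trim25, the ubiquitin ligase that helps RIG-I signal, read 3.62 and 2.30 in controls and 2.67 and 3.38 after doxycycline, and its difference of 0.06 ± 0.57 was -0.041 after quantile normalization. The median of the 4 was -0.31, and it was 0.25 without control array 1 and 0.042 with scaling to the median.

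In the IFIT family, cytosolic proteins that bind viral RNA and block its translation, doxycycline arrays lay below both controls for 3 of 3 members. Over all genes, 20.8% lay so. Ifit3 read 0.67 and -0.26 in controls and -1.45 and -1.02 after doxycycline. The groups did not overlap, and the 2 controls were 0.93 log2 units apart. The difference was -1.44 ± 0.48, or 2.72-fold lower, with an unadjusted p of 0.0208 and an adjusted p of 0.558 (limma), and it was -0.98 ± 0.37 without control array 1. Ifit2 read -1.14 and -2.27 in controls and -2.39 and -2.38 after doxycycline, so that control array 2 lay just above both of them. Its difference of -0.68 ± 0.50 was -0.11 without control array 1. Ifit1 read -2.92 and -3.00 in controls and -3.23 and -3.27 after doxycycline. That probe was dim, not well above background on control array 1. Its difference of -0.29 ± 0.39 was 0.060 with scaling to the median and -0.027 after quantile normalization. The family median was -0.68 with all arrays, -0.25 without control array 1 and -0.33 with scaling to the median. Ifit3 has a near copy, Ifit3b, and the probe sequences were not used here, so signal from the copies may be mixed.

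In the OAS family, enzymes and relatives that answer to double-stranded RNA and lead to RNA decay, control array 2 was the lowest or next to lowest of the 4. Oas2 read 1.98 and -0.54 in controls and 1.02 and 1.30 after doxycycline. Before scaling, its processed signal was 444 and 118 in controls and 505 and 476 after doxycycline. Scaled to each array's 75th percentile, the controls differed 5.75-fold and the doxycycline arrays lay between them. The difference was 0.44 ± 0.80 with all arrays and 1.70 ± 0.34, or 3.26-fold, without control array 1 (unadjusted p = 0.00588, adjusted p = 0.359, limma). Oas1a, which has close copies in the genome, read 0.92 and -0.99 in controls and -0.75 and -0.43 after doxycycline. Oasl2 read 0.56 and -1.28 in controls and -1.38 and -0.49 after doxycycline. Oasl1, a relative known to limit Irf7 translation, read -0.27 and -1.31 in controls and 0.20 and -1.10 after doxycycline, its highest level being on doxycycline array 1. The family median of -0.11 became 0.63 without control array 1, when all 4 differences were above 0, and 0.24 with scaling to the median.

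The ISG15 system holds Isg15, a ubiquitin-like protein joined to other proteins, and Usp18, the protease that removes it and damps the type I receptor. Usp18 read -0.71 and -1.74 in controls and -2.82 and -1.91 after doxycycline. Both doxycycline arrays lay below both controls, with a difference of -1.14 ± 0.54, or 2.20-fold lower (adjusted p = 0.779, limma), and of -0.62 ± 0.49 without control array 1. Isg15 read 2.16 and 0.46 in controls and 1.43 and 0.52 after doxycycline, and the controls were 3.23-fold apart. Its difference of -0.33 ± 0.65 was 0.51 ± 0.49 without control array 1, 0.016 with scaling to the median and 0.08 for a dimmer second probe.

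Membrane restriction factors differed from each other. Bst2, which tethers budding virus to the cell, read 3.02 and 1.24 in controls and 0.78 and 0.91 after doxycycline. Both doxycycline arrays lay below both controls, and the difference was -1.29 ± 0.62, or 2.44-fold lower (adjusted p = 0.793, limma), and -0.39 ± 0.33 without control array 1. Ifitm3, which blocks viral entry from endosomes, read 4.53 and 2.90 in controls and 5.13 and 3.35 after doxycycline. Its highest level was on doxycycline array 1, 1.78 above doxycycline array 2, and each group spanned a wide range. The difference was 0.52 ± 0.77 with all arrays and 1.34 ± 0.80 without control array 1.

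Of the 8 other effectors, Ifi44 and Xaf1 had both doxycycline arrays below both controls, as did 20.8% of all genes. Ifi44, an interferon-induced protein of the cytosol, read -1.98 and -3.44 in controls and -4.27 and -3.46 after doxycycline, where the second arrays of both groups were almost level. That probe was dim, and its level on doxycycline array 1 lay near -4.44, the lowest level well above background on that array. The difference of Ifi44 was -1.15 ± 0.60 (adjusted p = 0.813, limma), and it was -0.42 without control array 1. Isg20, a nuclease that degrades RNA, read 1.76 and -0.41 in controls and -0.16 and -0.35 after doxycycline, with the controls 4.52-fold apart and the other 3 arrays close together. Rtp4, a chaperone of membrane receptors, read 1.97 and -0.04 in controls and -0.34 and 0.39 after doxycycline. Cmpk2, a mitochondrial nucleotide kinase, read -1.84 and -3.21 in controls and -4.38 and -2.57 after doxycycline. Both groups were spread, with array 1 minus array 2 at 1.37 in controls and -1.80 after doxycycline. Its probe was not well above background on doxycycline array 1. Its difference of -0.95 ± 0.73 was -0.26 without control array 1 and -0.046 without doxycycline array 1. The remaining members, Xaf1, Rsad2, Ifi35 and Parp14, had differences from -0.56 to 0.04 with all arrays, and that of Xaf1, -0.56, was -0.24 without control array 1. Parp14, an ADP-ribosyltransferase, was -0.01 ± 0.62 with all arrays and 0.84 ± 0.38 without control array 1. The group median of -0.74 became 0.11 without control array 1 and was -0.40 with scaling to the median.

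The gamma-type transcription factors lay above control array 2 on both doxycycline arrays. Irf1, an early target of interferon gamma, read 3.96 and 1.95 in controls and 3.84 and 2.46 after doxycycline. Each group held a high and a low array, 2.00 apart in controls and 1.37 apart after doxycycline. The difference was 0.20 ± 0.77, and 1.20 ± 0.65 without control array 1 (adjusted p = 0.624, limma). Irf8, a regulator of myeloid cells, read 0.62 and -0.81 in controls and 0.15 and -0.36 after doxycycline. Its difference of -0.01 ± 0.57 became 0.71 ± 0.38 without control array 1 and 0.34 with scaling to the median.

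The gamma-type GTPases act on the membranes around engulfed microbes. Gbp3, a guanylate-binding protein, read 1.85 and -1.02 in controls and 0.39 and -1.22 after doxycycline. Its controls were 7.31-fold apart, the widest control gap of any tested member, and its doxycycline arrays were 1.61 log2 units apart. Gbp2, of the same family, read 2.26 and 0.30 in controls and 1.47 and 0.47 after doxycycline. Igtp, an immunity-related GTPase, read 1.97 and 1.01 in controls and 1.47 and 0.80 after doxycycline. Irgm1, which regulates that family, read 0.97 and 0.26 in controls and 0.38 and 0.34 after doxycycline. Iigp1, an effector of it, read 0.62 and 0.60 in controls and 0.24 and 0.78 after doxycycline, the smallest control gap among members. The GTPase differences ran from -0.83 ± 0.98 for Gbp3 to -0.10 ± 0.42 for Iigp1, and 5 of 5 were below 0. Their median of -0.31 became 0.13 without control array 1 and 0.035 with scaling to the median. Members of these families are alike in sequence, so signal may be shared between them.

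A second probe was measured for 6 members. It gave a difference of the same sign for Oas1a, Isg20 and Xaf1 and of the opposite sign for Isg15, Irgm1 and Iigp1. The second probe of Iigp1 read -1.37 and -1.04 in controls, so control array 1 was the lower there. For Xaf1, a pro-apoptotic protein, the second probe read 0.34 and -2.21 in controls and -2.56 and -1.89 after doxycycline, so its groups overlapped where those of the brighter probe did not.

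The rest of the pathway was read from lists of other genes. Of the 14 interferon genes with a probe, 13 were well above background on 0 of 4 arrays, and Ifnl3, a lambda interferon, was dim and was the one tested. It read -1.92 and -2.62 in controls and -3.16 and -2.91 after doxycycline (-0.76 ± 0.44, adjusted p = 0.847, limma). Of 13 receptors and signal transducers tested, 4 were above 0 and 9 below, with a median of -0.30 that became 0.20 without control array 1 and 0.051 with scaling to the median. Ifngr2, a chain of the gamma receptor, read 3.15 and 4.31 in controls and 2.72 and 2.17 after doxycycline. Unlike the members it was higher on control array 2, and its difference was -1.28 ± 0.52 with all arrays (adjusted p = 0.689) and -1.87 without control array 1 (adjusted p = 0.365, limma).

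In the sensing pathway, 6 of 10 genes were above 0, with a median of 0.12 that was -0.24 after normexp background correction. Myd88, the adaptor of Toll-like receptors, read -0.05 and -0.33 in controls and 1.98 and 0.48 after doxycycline, above both controls on both arrays (1.42 ± 0.57, adjusted p = 0.684, limma). Among 16 genes of antigen processing and presentation, 13 were below 0, with a median of -0.29 that became 0.22 without control array 1 and 0.055 with scaling to the median, and 15 of the 16 had the higher control level on array 1. Cd74, the invariant chain of antigen-presenting cells, read 2.95 and 0.47 in controls and -0.76 and -0.38 after doxycycline (-2.28 ± 0.79, adjusted p = 0.586, limma), and its difference was -1.05 without control array 1. Of 36 other interferon-induced genes, 29 were below 0 and all 36 were higher on control array 1, with a median of -0.36 that became 0.08 without that array. Ifit3b read -1.19 and -1.50 in controls and -3.29 and -3.12 after doxycycline, with the controls close together. Its difference of -1.86 ± 0.40 (unadjusted p = 0.00267, adjusted p = 0.325, limma) was -1.71 without control array 1. No gene of any of these lists passed the adjusted test.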

How the data were processed

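RNA of heart muscle cells was labelled with Cy3 and hybridised to 4 Agilent 1-colour arrays. Spot intensity was read from the scans by the authors, with Agilent Feature Extraction 10.7.1.1 per the file headers. The deposited processed intensity is background-subtracted, on a linear scale and not normalized between arrays. Other deposited columns give per-spot flags (saturation, outliers, signal well above background), per the file headers. Here the log2 intensity was taken minus each array's 75th percentile over 43020 non-control spots, and outlier spots were left out. Spots of a probe were averaged, probes well above background on at least 2 arrays were kept, and the brightest named probe stood for a gene. Accessions were named through a RefSeq table of GRCm38.p6 (27508 probes, 20886 genes). The array design uses another build, so no probe coordinates are given.

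Two-sided tests used limma 3.58.1 in R 4.3.3 (4.69 prior and 2 residual degrees of freedom), with Benjamini-Hochberg adjustment over 12542 genes and a threshold of 0.05. The steps were tested on simulated data. Per-array values are given for all gamma-type members and for up to 4 type I members per role with the smallest p, and other pathway genes are up to 3 per list by p, of which those needed are given. Promoters shown are up to 6 tested members with the response element core by smallest p, at most 2 per role. The members and lists were chosen with earlier results of these data known. Alternatives were normexp (offset 50), quantile and median scaling, a looser and a stricter filter on dim probes, averaging a gene's probes, trended and robust variances, a block by replicate number, leaving out each array, and an unadjusted threshold. The number of arrays limits the precision.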

Additional observations from a re-analysis of the deposited data

How the results depend on the processing

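No interferon response gene passed the adjusted test under any alternative run, and the smallest adjusted p of a member over them was 0.0954, without control array 2 (limma). At an unadjusted p under 0.05 and a log2 difference of 1 or more in size, 1 member (Ifit3, lower) passed, as did 873 of all genes. Over all genes the count passing was 0, and it was 128 with scaling to the median, 295 with the replicate number as a block and 0 to 171 with an array left out (0 without either control array, 32 without doxycycline array 1, 171 without doxycycline array 2), where the lone array is assumed to vary like the other group. The labels give no pairing of same-numbered arrays, so the block has no basis in them. Deviations of the same-numbered arrays had a correlation of -0.09 across genes, which cannot show whether arrays were paired. The type I median ran from -1.19 to 0.17 with an array left out and was above 0 without control array 1. It was -0.20 with scaling to the median. The gamma-type median was 0.092 with scaling to the median, which moves all genes by 0.35, and ran from -0.81 to 0.61 with an array left out. With scaling to the median the difference was 0.064 for Irf9, 0.012 for Stat2, 0.18 for Ddx58, 0.060 for Ifit1, 0.016 for Isg15, 0.34 for Parp14, 0.34 for Irf8, 0.035 for Gbp2, 0.092 for Irgm1 and 0.25 for Iigp1. It was -0.041 for Trim25 after quantile normalization and 0.065 for Iigp1 as the mean of its probes. With an array left out, differences that changed sign ran from -0.98 to 0.41 for Irf9, from -1.10 to 0.43 for Stat2, from -0.80 to 0.46 for Ddx58, from -1.40 to 0.031 for Ifih1, from -0.60 to 0.72 for Trim25, from -1.51 to 0.40 for Oas1a, from -0.82 to 1.70 for Oas2, from -0.30 to 0.99 for Oasl1, from -1.49 to 0.34 for Oasl2, from -1.18 to 0.51 for Isg15, from -0.37 to 1.42 for Ifitm3, from -1.28 to 0.19 for Rsad2, from -2.02 to 0.16 for Isg20, from -0.12 to 0.20 for Ifi35, from -0.86 to 0.84 for Parp14, from -1.94 to 0.060 for Rtp4, from -0.81 to 1.20 for Irf1, from -0.72 to 0.71 for Irf8, from -1.29 to 0.67 for Gbp2, from -2.26 to 0.61 for Gbp3, from -0.83 to 0.13 for Igtp, from -0.61 to 0.10 for Irgm1 and from -0.37 to 0.17 for Iigp1. The cause was not tested. Signal near background limits Ifit1, Cmpk2, Ifi44 and Dhx58.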
